A study of Homo sapiens with 4 samples.

Results

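The genes described here are the interferon regulatory factors IRF1, IRF2, IRF3, IRF5, IRF7, IRF8 and IRF9 and the signal transducer STAT2, chosen by gene symbol. Of these 8 genes, 7 were measured among 27106 genes, and IRF9 is not analysed here. RNA was sequenced from THP-1 cells, a human monocytic leukaemia line that carries an MLL-AF9 fusion, transfected with an antisense oligonucleotide, a synthetic strand made to deplete a chosen RNA, at the time named day 5. In 2 libraries the oligonucleotide targeted SGOL1-AS1, a long noncoding RNA (knockdown), and in 2 it was non-targeting. The knockdown columns are headed by an unexplained code and were assigned because no other group was left for them, and every direction below rests on that. Knockdown libraries 1 and 2 are numbered here in column order, and which of them is the sample labelled Rep1 is not known.

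IRF proteins share a DNA-binding domain that reads the interferon-stimulated response element (ISRE), a pair of GAAA blocks. Signals from nucleic acid sensors and Toll-like receptors switch on IRF3, IRF5 and IRF7, which drive interferon and cytokine genes. Secreted type I interferon then acts through its receptor and JAK kinases on STAT2, which joins a partner STAT and IRF9 to form ISGF3, the complex that binds ISREs and raises antiviral genes, IRF7 among them in most cells. IRF1 and IRF2 bind the same element with largely opposite effects, and IRF8 directs monocyte development.

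The upstream sequences of STAT2 and IRF1 are shown because STAT2 kept its call under most alternatives below and the IRF1 window held a motif match, and each is given on the gene's strand from RefSeq (GRCh38.p14), ending before the outermost annotated start. Capitals mark a match to the GAS core TTCNNNGAA, the element bound by STAT dimers; the ISRE core searched was 2 GAAA blocks with any 2 bases between them, both on either strand, and the motifs did not overlap in these sequences.
IRF1 chr5:132490799-132491023 (minus strand): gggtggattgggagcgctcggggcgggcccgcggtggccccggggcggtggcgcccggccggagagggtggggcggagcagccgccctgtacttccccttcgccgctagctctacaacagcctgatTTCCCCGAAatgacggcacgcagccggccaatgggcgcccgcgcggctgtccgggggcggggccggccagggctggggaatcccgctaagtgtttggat
STAT2 chr12:56360156-56360357 (minus strand): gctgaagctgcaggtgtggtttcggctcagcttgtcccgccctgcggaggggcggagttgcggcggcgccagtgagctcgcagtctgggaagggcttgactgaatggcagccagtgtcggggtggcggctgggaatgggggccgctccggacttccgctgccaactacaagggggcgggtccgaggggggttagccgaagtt
The sites below are from the start regions of ISG15 and LGALS3BP, which are not IRF genes but 2 of the target genes described later, with ISRE matches in capitals.
ISG15 chr1:1013377-1013406 (plus strand): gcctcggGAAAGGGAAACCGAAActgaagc
LGALS3BP chr17:78979962-78979991 (minus strand): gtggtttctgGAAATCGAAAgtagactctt
The IRF1 match, TTCCCCGAA, began 124 bases before the RefSeq start. No other match to either motif was found in the 8 promoter windows of the 4 measured factors with a RefSeq window (IRF1, IRF5, IRF8 and STAT2; 250 bases before to 50 after each start). Of all 35116 windows, 3.57% held the ISRE core and 7.66% the GAS core, so a match or its lack describes these letters only.

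The targeted RNA, listed as SGO1-AS1, had 12 and 17 reads in the knockdown libraries and 24 and 21 in the non-targeting libraries, a log2 fold change of -0.48 that was not called (limma, adjusted p = 0.555). Its level therefore does not check the labels at this depth. The knockdown libraries held 48558537 and 41435922 reads and the non-targeting libraries 50855150 and 51851314, and mitochondrial genes took 1.08% and 1.13% of them in the knockdown against 0.989% and 0.953%. Summed monocyte markers (10 of 10 measured) stood at 69648 and 68924 normalised counts in the knockdown and 71716 and 69232 in the non-targeting libraries. LYZ made up most of each sum, at 39733 and 40116 in the knockdown and 37332 and 36975 in the non-targeting libraries. It was not called (limma, log2 fold change 0.10, adjusted p = 0.261). Of the 10 markers 3 fell: CD4, FCGR1A and CEBPB. Among those not called, CD33 was also above 0 (0.05) and the rest were below 0. Of 8 lymphocyte markers 5 were measured, with sums of 2914 and 3578 against 4787 and 4739, most of it PAX5, which fell (limma, log2 fold change -0.58, adjusted p = 2.45e-05). Of 6 erythroid and megakaryocyte markers 1 was measured, at 32.6 and 45.6 against 27.8 and 34.8, and of 7 epithelial and fibroblast markers 4 were, with sums of 396 and 424 against 441 and 389; none of these passed. The part of these differences in the results below was not tested.

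Of the 7 measured factors, 4 fell (IRF7, STAT2, IRF2 and IRF5) and 0 rose, against 3.4% of all 19398 tested genes that fell and 0.851% that rose (limma on log2 normalised counts + 1, adjusted p under 0.05 over all genes). In all 7, both knockdown libraries lay below both non-targeting libraries, as they did in 25.1% of tested genes. The log2 fold changes, knockdown minus non-targeting, ran from -0.73 to -0.10 with a median of -0.20, where the median of all tested genes was -0.01. Across all genes 660 were lower and 165 higher, and 293 and 235 when every library was scaled to the same total, 650 and 291 with the same median and 334 and 142 after quantile normalisation. Nothing says that the libraries came from separate cultures, so the scatter between them may be technical. The p-values set each group difference against a variance drawn from that scatter and shared over genes of like level. In bulk RNA, fewer cells that make a factor and less of its RNA per cell cannot be told apart.

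**Figure D1:**
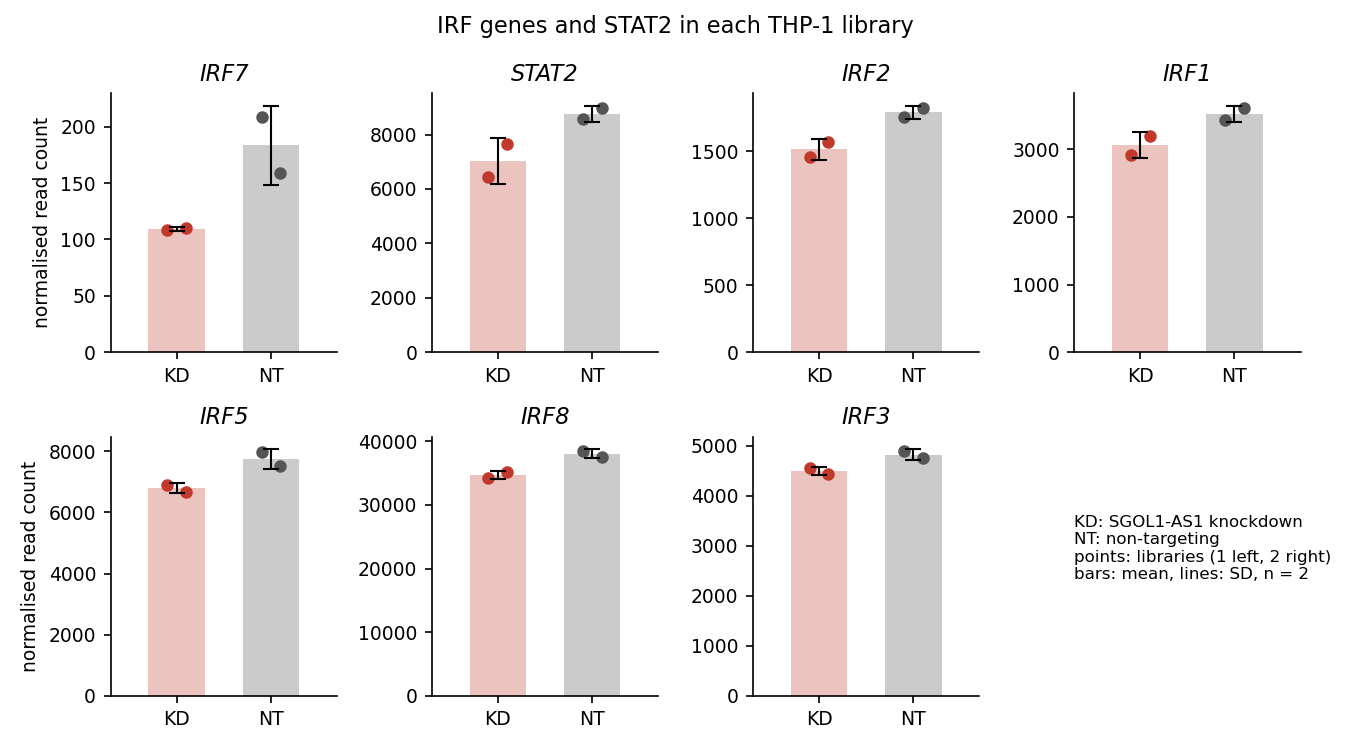
Normalised read count of each of the 7 factors in the 2 knockdown (KD, left) and 2 non-targeting (NT, right) libraries, ordered by log2 fold change; bars are means, lines are SD (n = 2) and points are libraries. In every panel both knockdown points sit below both non-targeting points, and the gap is widest relative to the mean for IRF7.

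IRF7, the factor that amplifies type I interferon production, had the largest log2 fold change of the 7. It lies on chromosome 11 from 612553 to 615999 on the minus strand (GRCh38, GENCODE 29) and was read 113 and 97 times in the knockdown libraries, against 217 and 169 times in the non-targeting libraries. Its normalised count was 108 and 111 in the knockdown and 208 and 159 in the non-targeting libraries. The knockdown libraries were nearly equal and the spread lay between the non-targeting ones. The means were 109 ± 1.60 and 184 ± 34.9 (SD, n = 2 each), and IRF7 fell by 0.73 ± 0.16 (SE) on the log2 scale (limma, adjusted p = 0.00746), a level 0.604 times that of the non-targeting libraries with a 95% interval of 0.481 to 0.757. Counting error alone gave a pooled rate of 0.596 times, with an exact 95% Poisson interval of 0.502 to 0.707. The call rested on non-targeting library 1: without it IRF7 stood at -0.53 (adjusted p = 0.251), and DESeq2 on the recovered reads gave -0.74 (adjusted p = 0.0555).

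STAT2, which carries the signal of the type I interferon receptor, lies on chromosome 12 from 56341597 to 56360155 (minus strand). It stood at 6427 and 7641 normalised counts in knockdown libraries 1 and 2 and at 8558 and 8972 in the non-targeting libraries. Knockdown library 1 was the lower of the pair, and the distance between the knockdown libraries was larger than that between the non-targeting ones. With means of 7034 ± 858 and 8765 ± 293 (SD, n = 2 each), STAT2 fell by 0.32 ± 0.06 (SE) on the log2 scale (limma, adjusted p = 0.00325), to 0.800 times the non-targeting level (95% interval 0.731 to 0.875). Without knockdown library 1 the change was -0.20 and without knockdown library 2 it was -0.45. Both fits leave out the spread between the knockdown libraries, which was the larger, so their calls carry less weight than that of the full fit. STAT2 kept its call in 15 of 16 alternatives, these fits among them. The exception was limma with no mean-variance trend (adjusted p = 0.418), which called no gene.

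IRF1, the activator that interferon-gamma induces, and IRF2, its antagonist at the same sites, differed in their call but were close in size. IRF2 (chromosome 4, 184387713 to 184474580, minus strand) had normalised counts of 1457 and 1569 in the knockdown and 1755 and 1823 in the non-targeting libraries. It fell by 0.24 ± 0.07 (SE) on the log2 scale (limma, adjusted p = 0.0354). IRF1 (chromosome 5, 132481609 to 132490798, minus strand) had 2922 and 3200 in the knockdown and 3439.9 and 3608 in the non-targeting libraries. Its log2 fold change of -0.20 ± 0.06 (SE; 95% interval -0.33 to -0.08) lay just past the threshold on the side of no call (limma, adjusted p = 0.0530). In both genes knockdown library 1 was the lower. The call of IRF2 ended in 8 of 16 alternatives: without knockdown library 1 (adjusted p = 0.142), non-targeting library 1 (0.126) or non-targeting library 2 (0.253), with DESeq2 (0.117), the same total (0.129), quantile normalisation (0.121) or TMM scaling (0.0526), and with no mean-variance trend (0.385). IRF1 was called with robust empirical Bayes (adjusted p = 0.0262) and without knockdown library 2 (-0.27), a fit that leaves out the spread between the knockdown libraries.

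IRF5, which relays Toll-like receptor signals to inflammatory cytokine genes, lies on chromosome 7 from 128937612 to 128950035 (plus strand). Its normalised count was 6902 and 6673 in the knockdown and 7971 and 7509 in the non-targeting libraries. It fell by 0.19 ± 0.05 (SE) on the log2 scale (limma, adjusted p = 0.0385), and here knockdown library 2 was the lower. The call was close to the threshold and ended in 10 of 16 alternatives, among them edgeR (adjusted p = 0.0629), DESeq2 (0.0892), and the fits that left out knockdown library 2 (0.0764) or either non-targeting library (0.511 without the first, 0.0826 without the second).

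IRF3 and IRF8 had the smallest differences and did not pass. IRF3, the factor that TBK1 phosphorylates to start interferon-beta transcription, lies on chromosome 19 from 49659569 to 49665875 (minus strand). It had 4549.5 and 4431 normalised counts in the knockdown and 4899.5 and 4752 in the non-targeting libraries, a log2 fold change of -0.10 ± 0.05 (SE; limma, adjusted p = 0.324). IRF8 (chromosome 16, 85898803 to 85922609, plus strand) had 34250.0 and 35192 in the knockdown and 38544 and 37575 in the non-targeting libraries, a log2 fold change of -0.13 ± 0.05 (SE; limma, adjusted p = 0.134). The groups did not overlap in either gene. The 95% interval of the log2 fold change ran from -0.21 to 0.01 for IRF3 and from -0.23 to -0.03 for IRF8, before adjustment over all genes. Neither passed in any of the 16 alternatives.

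**Figure D2:**
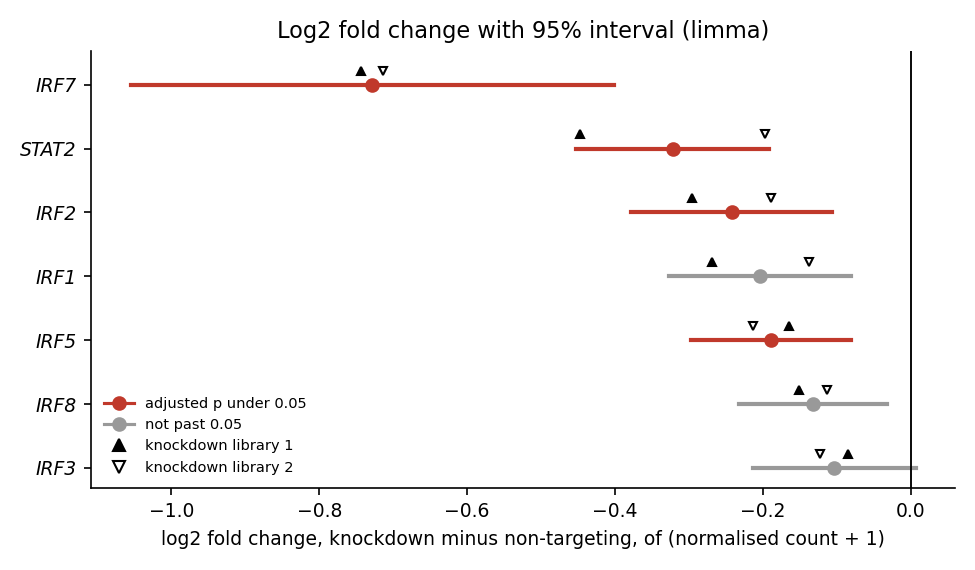
Log2 fold change of each factor, knockdown minus non-targeting, of the normalised count + 1 (dot) with its 95% interval by limma (line); triangles give the distance of each knockdown library from the non-targeting mean. IRF7 lies at -0.73 and STAT2 at -0.32, and of the 7 intervals that of IRF3 reaches past 0.

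Knockdown library 1 lay further below the non-targeting mean than knockdown library 2 in 5 of 7 factors, the exceptions being IRF3 and IRF5. The median distance over the 7 factors was -0.27 in knockdown library 1 and -0.19 in knockdown library 2 (log2). The knockdown libraries differed most in STAT2, at -0.45 and -0.20, and least in IRF7, at -0.74 and -0.71.

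IRF8 was the most abundant of the factors per length. Its level was 6726 ± 129 normalised counts per kilobase of exon in the knockdown and 7373 ± 133 in the non-targeting libraries (SD, n = 2 each). IRF5 followed at 1551 ± 37.0 and 1769 ± 74.5, then STAT2 at 1151 ± 141 and 1435 ± 47.9 and IRF3 at 1183 ± 22.1 and 1272 ± 27.5. STAT2 and IRF3 were not in the same order in every library: STAT2 was the lower of the pair in knockdown library 1 (1052 against 1199 for IRF3) and the higher in the other 3 libraries. IRF2 (486 ± 25.5 and 574 ± 15.4) lay above IRF1 (393 ± 25.2 and 452 ± 15.2), a gap that exceeded the spread between libraries in both groups. That order rests on the exon lengths used, 3116 bases for IRF2 and 7799 for IRF1. Before division by length, IRF1 had the higher normalised count in every library. IRF7 was the scarcest, at 41.7 ± 0.608 per kilobase in the knockdown and 69.9 ± 13.3 in the non-targeting libraries. Exon lengths are unions over all annotated transcripts, so levels of genes with long rare isoforms are understated.

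**Figure D3:**
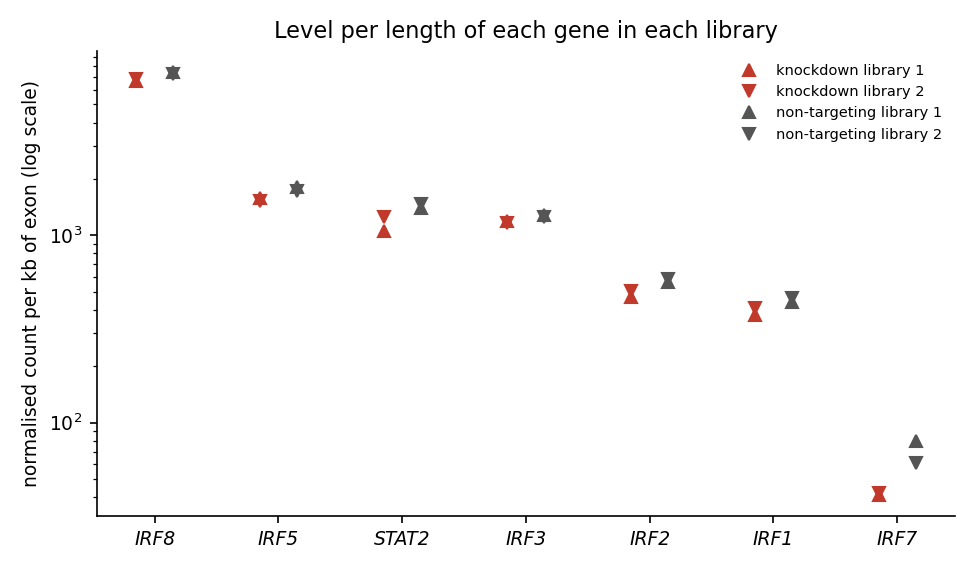
Normalised read count per kilobase of exon (log axis) of each factor, ordered by the non-targeting mean; red symbols (left of each pair) are knockdown and grey symbols non-targeting libraries. IRF8 stands at 6635 or more and IRF7 at 79.3 or less per kilobase in every library, and the STAT2 symbols spread across those of IRF3 in the knockdown.

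Set against the other IRF genes of the same library, IRF7 had a smaller share in both knockdown libraries. It made up 0.401% and 0.402% of the summed per-length level of the 6 IRF genes in the knockdown libraries and 0.680% and 0.533% in the non-targeting libraries. IRF8 made up 64.4% and 65.1% in the knockdown and 64.0% and 64.1% in the non-targeting libraries. The level of IRF7 relative to IRF3, the inducible and the constitutive activator of interferon genes, was 0.0347 and 0.0364 in the knockdown and 0.0617 and 0.0486 in the non-targeting libraries. That is a log2 difference of -0.62. Both knockdown values lay below both non-targeting values, as did those of 25.1% of single tested genes. The per-length ratio of IRF1 to IRF2, which rests on the exon lengths given above, was 0.801 and 0.814 in the knockdown libraries. It was 0.783 and 0.790 in the non-targeting libraries, a log2 difference of 0.04. Here both knockdown values lay above both non-targeting values, as did those of 21.6% of single tested genes. The ratio of IRF8 to IRF5 was 4.21 and 4.47 against 4.10 and 4.24, with overlapping groups. With 2 libraries against 2, an exact two-sided permutation test of such a ratio cannot reach the threshold (its smallest p is 1 in 3), so these are values without a test.

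Some factors share sequence positions with other genes, and whether reads were counted by strand is not given in the sources used here. IRF1-AS1 (GENCODE name C5orf56) runs antisense to IRF1 over 7094 bases of its span and stood at 353 and 368 normalised counts in the knockdown and 375 and 334 in the non-targeting libraries. These groups overlapped and the gene did not pass (limma, log2 fold change 0.03, adjusted p = 0.935). A further gene annotated antisense to IRF1, AC116366.3, is not analysed here. BCL2L12 overlaps 734 bases at the 5′ end of IRF3 on the other strand and stood at 1856 and 1560.2 in the knockdown and 1997 and 1811 in the non-targeting libraries (limma, log2 fold change -0.16, adjusted p = 0.277). Small genes inside STAT2 (RNU7-40P), IRF2 (ENSG00000270426) and IRF8 (MIR6774) had between 13.7 and 30.7 normalised counts in every library and did not pass.

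The upstream receptors and kinases did not pass the threshold. Of 9 listed genes for interferon receptors and their JAK kinases 8 were tested and 0 were called by limma, with a median log2 fold change of -0.03. Of all tested genes 3.4% fell and 0.851% rose, so a count of 0 among 8 genes says little. By limma 2 of the 8 had an unadjusted p under 0.05, as had 3336 of all 19398 tested genes. At the adjusted threshold edgeR and DESeq2 also called 0, and limma with the same median called 1. JAK2, the kinase of the interferon-gamma receptor, averaged 4263 ± 211 in the knockdown and 4753 ± 87.6 in the non-targeting libraries (SD, n = 2 each; limma, log2 fold change -0.16, adjusted p = 0.118). IFNGR2, a chain of that receptor, was at 309 and 195 against 401 and 283, with overlapping groups (-0.46, adjusted p = 0.136). IFNGR1 and IL10RB stood at 0.06 and 0.14.

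Among the sensors, adaptors and kinases that activate IRF3, IRF5 and IRF7, 5 of 22 tested genes fell and 0 rose, with a median of -0.12. Of all tested genes 3.4% fell and 0.851% rose. This list and those that follow were chosen with earlier results of these libraries known. UNC93B1, which carries endosomal Toll-like receptors, averaged 10385 ± 283 in the knockdown and 13841 ± 908 in the non-targeting libraries (SD, n = 2 each) and fell by 0.41 (limma, adjusted p = 3.85e-05). The RNA sensors RIGI and IFIH1 fell by 0.47 and 0.40 and the adaptor MYD88 by 0.30. UNC93B1, RIGI, IFIH1 and MYD88 were named for the smallest p-values on the list, so their falls are no separate evidence. TASL, the adaptor through which endosomal receptors reach IRF5, was also picked out with its value known, and it fell by 0.27 (limma, adjusted p = 0.00549).

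Of 26 inhibitors and cofactors of the pathway, 5 fell and 0 rose, with a median of -0.11, where 3.4% of all tested genes fell. USP18, which shuts off signalling at the type I receptor, is itself a target gene and is counted in the target list below as well. It averaged 3539.8 ± 502 in the knockdown and 5083 ± 254 in the non-targeting libraries (SD, n = 2 each) and fell by 0.53 (limma, adjusted p = 6.49e-05). The phosphatase PTPN6 fell by 0.40, the ubiquitin ligase RBCK1 by 0.25 and IRF2BP2, a corepressor that binds IRF2, by 0.19. USP18, PTPN6, RBCK1 and IRF2BP2 were named for the smallest p-values on the list. SOCS3, a JAK inhibitor likewise picked out with its value known, fell by 0.44 (limma, adjusted p = 0.0300). Of 8 other IRF and STAT genes 1 fell, against 3.4% of all tested genes, with a median of -0.13. The count was 0 with the same total, after quantile normalisation, with no mean-variance trend, and without knockdown library 1, non-targeting library 1 or non-targeting library 2, and it was 2 without knockdown library 2. Among those not called, STAT6 was at -0.15, STAT3 at -0.09, and IRF4, with 20 and 25 reads in the knockdown and 37 and 39 in the non-targeting libraries, at -0.60 (limma, adjusted p = 0.305).

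Of 46 tested target genes of ISGF3 and IRFs, 42 fell and 0 rose, with a median of -0.36, where 3.4% of all tested genes fell. Without IRF7 and STAT2, which are on the list, 40 of 44 fell. The list was chosen with earlier results of these libraries known and is no independent evidence of the direction. ISG15, LGALS3BP, IFITM3 and IFI35 were named for the smallest p-values on the list. ISG15, a ubiquitin-like protein with the ISRE printed above, fell by 0.52 (limma, adjusted p = 1.20e-05), and LGALS3BP, a secreted glycoprotein, fell by 0.59. IFITM3, which blocks viral entry and has close paralogs that make its reads uncertain, fell by 0.58. IFI35 fell by 0.55, and its promoter window held a GAS match but none to the ISRE core. The genes that did not pass, named after their values were seen, were GBP1 at -0.34, GBP2 at -0.24, CIITA at -0.19 and XAF1 at -0.17. The number that fell was 24 with DESeq2 and 24 with robust empirical Bayes.

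**Figure D4:**
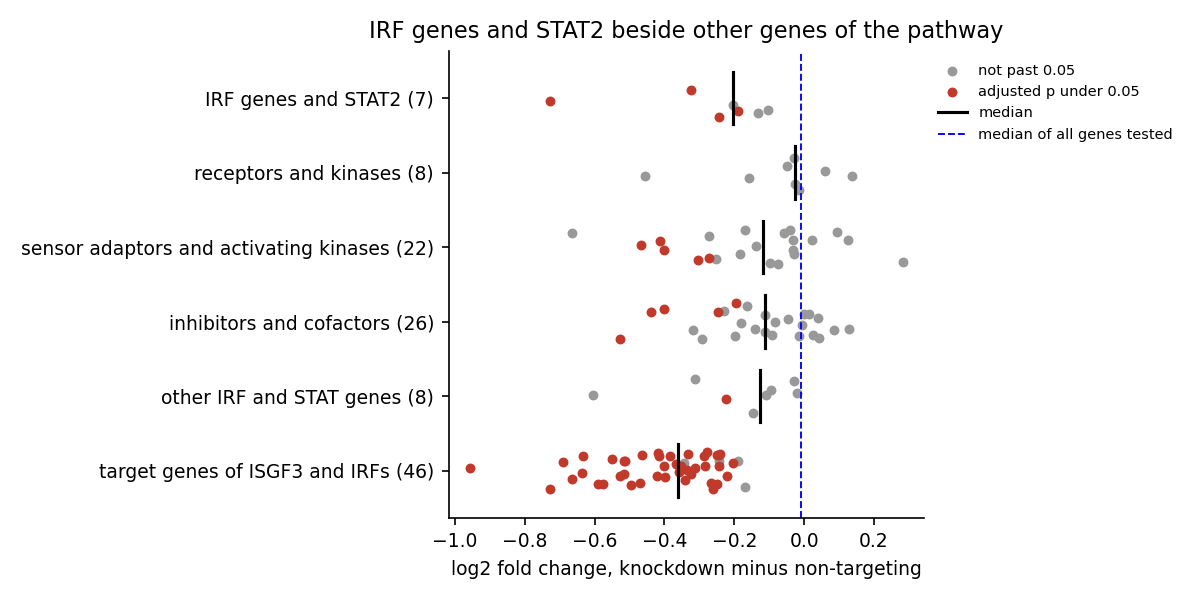
Log2 fold change, knockdown minus non-targeting, of each tested gene of the 7 factors and of the 5 pathway lists (number tested in brackets); red points passed the threshold, black bars are medians and the dashed line is the median of all tested genes. The target genes centre on -0.36, the factors on -0.20 and the receptors and kinases on -0.03. IRF7 and STAT2 appear in the first and last rows, and USP18 in the last row and that of the inhibitors and cofactors.

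Of 475 tested genes with the ISRE core 56 fell (11.8%) and 6 rose (1.26%). Of the 11816 tested genes with a window, 4.17% fell and 0.762% rose. Of 1016 with the GAS core 40 fell (3.94%) and 6 rose (0.591%). Of the 46 target genes 35 had a window, and 25 of these held the ISRE core, so part of the first count is that list. No test was made of these shares.

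The genes whose values ran most like those of IRF7 over the 4 libraries, by Euclidean distance between log2 profiles centred on each gene's mean among 13157 genes with a mean of at least 50, were DPP4, SERPING1, SAMD4A, ZC2HC1C and SREBF1, at distances of 0.120 to 0.195. SERPING1, the complement C1 inhibitor, stood at 90.1 and 107 in the knockdown and 176 and 143 in the non-targeting libraries and fell by 0.68 (limma, adjusted p = 0.0172). DPP4, a surface peptidase, stood at 64.3 and 66.1 against 113 and 88.4 and did not pass (adjusted p = 0.0790). For STAT2 they were CCR1, LAP3, TNFRSF10B, APOL6 and WDFY1, at distances of 0.0181 to 0.0350, and all 5 fell, which follows from choosing them for a profile like that of a gene that fell. The same holds for the direction of the genes chosen for IRF7. CCR1, a chemokine receptor, stood at 3468 and 4151 in the knockdown and 4663 and 4810.3 in the non-targeting libraries and fell by 0.32 (limma, adjusted p = 0.00519). The 4 libraries fix such profiles only loosely, and the likeness is a description.

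**Figure D5:**
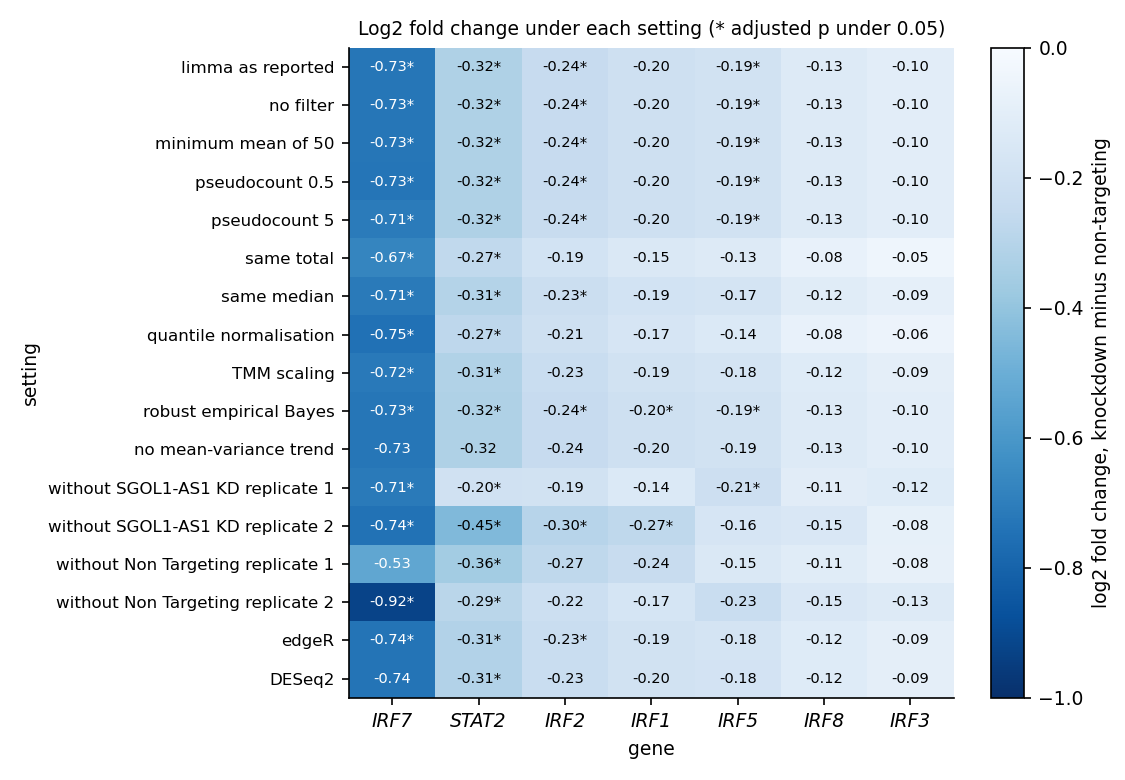
Log2 fold change (colour and printed value, knockdown minus non-targeting) of each factor under limma as reported and each of 16 alternatives, with a star where the adjusted p was under 0.05. All values are below 0, STAT2 has a star in every row but that of no mean-variance trend, and IRF3 and IRF8 have none.

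The number of factors that fell was 4 with no filter, with 2.29% of all genes falling in that fit, 4 with a minimum mean of 50 (4.32% of genes), 4 with a pseudocount of 0.5 (3.38%) and 4 with a pseudocount of 5 (3.43%). It was 2 with the same total (1.51%), 3 with the same median (3.35%), 2 after quantile normalisation (1.72%) and 2 with TMM scaling (2.73%). Robust empirical Bayes gave 5 (3.99%), edgeR 3 (2.87%) and DESeq2 1 (2.91% of the 13004 genes to which it gave an adjusted p). Limma with no mean-variance trend gave 0 (0% of genes), where 2 factors had an unadjusted p under 0.05, as had 2337 of all 19398 tested genes. Leaving out knockdown library 1 gave 3 (4.95%), knockdown library 2 gave 4 (4.7%), non-targeting library 1 gave 1 (1.72%) and non-targeting library 2 gave 2 (2.34%). Across these 16 alternatives all 7 factors had a log2 fold change below 0, from -0.92 to -0.53 for IRF7, -0.45 to -0.20 for STAT2, -0.30 to -0.19 for IRF2, -0.27 to -0.14 for IRF1, -0.23 to -0.13 for IRF5, -0.15 to -0.08 for IRF8 and -0.13 to -0.05 for IRF3.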

How the data were processed

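The deposited values are a signal per gene, namely reads divided by a size factor for each library, as the authors' table itself shows. STAR 2.5.1b, DESeq2 and GRCh38 appear without a stated role, per the submitters' processing notes; the sources used here name no annotation, counting tool or strand setting. Dividing by the step between low values returned whole reads (100% within 0.1 read). The smallest value of knockdown library 1 is 2 reads, so genes below that there are not analysed here. Ensembl identifiers were matched to symbols by table, with positions and lengths from GENCODE 29 (GRCh38) and promoters from RefSeq (GRCh38.p14).

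All 19398 genes whose mean reached 10 were fitted as log2(value + 1) by limma 3.58.1 (R 4.3.3; trended empirical Bayes), and Benjamini-Hochberg adjusted p-values were called at 0.05. Fold changes on this scale understate changes of low genes. The 16 alternatives changed the filter, pseudocount, scaling, variance model or libraries, or ran edgeR 4.0.16 (quasi-likelihood) or DESeq2 1.42.0 on the recovered reads. The factors and lists were chosen with earlier results of these data known. Besides the factors, the named genes were overlapping genes, up to 4 with the smallest p of each list and the 5 most like IRF7 and like STAT2 in pattern; a gene that this rule takes is not reported here. Read-rate intervals (exact Poisson, 95%) reflect counting error alone.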

Additional observations from a re-analysis of the deposited data

How the results depend on the processing

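No paired analysis was possible because the numbers heading the knockdown columns do not all match those of the labelled knockdown samples. Of the 7 factors 4 fell, against 4 with no filter, with a minimum mean of 50 and with pseudocounts of 0.5 and 5, 5 with robust empirical Bayes, and 3 with edgeR and with the same median. DESeq2 gave 1 factor, 24 target genes, 34 genes with an ISRE, and 379 lower and 66 higher genes in all. TMM scaling gave 2 factors. The same total gave 2 factors, 26 target genes, 34 genes with an ISRE, 3 inhibitors and cofactors, 0 other IRF and STAT genes and 293 lower genes. Quantile normalisation gave 2 factors, 26 target genes, 34 genes with an ISRE, 3 inhibitors, 0 other IRF and STAT genes and 334 lower genes. Robust empirical Bayes gave 24 target genes and 8 inhibitors. The same median gave 1 receptor or kinase and 291 higher genes. Limma with no trend gave 0 in every count, with 2337 of 19398 genes and 2 factors at an unadjusted p under 0.05. By contrast edgeR gave 556 lower and 159 higher genes. In fits without 1 library, the remaining one of its group was assumed to vary as the others do. The counts then ran from 1 to 4 factors, 31 to 45 target genes, 39 to 75 genes with an ISRE, 3 to 7 sensors and adaptors, 2 to 10 inhibitors, 0 to 2 other IRF and STAT genes, 0 to 1 receptors or kinases, and 334 to 960 lower and 87 to 309 higher genes; the lowest count of factors was without non-targeting library 1. With alternatives chosen after seeing the data, the log2 difference of IRF7 to IRF3 ran from -0.80 without non-targeting library 2 to -0.45 without non-targeting library 1. That of IRF1 to IRF2 ran from 0.03 to 0.05, and that of IRF8 to IRF5 from 0.01 without knockdown library 2 to 0.10 without knockdown library 1. For calls that ended under an alternative the cause was not tested. IRF7 had 97 to 217 reads per library, so counting error limits its precision beside the spread between libraries.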
